A study of Mus musculus with 70 samples.

Results

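Transcripts of 8 transcription factors that direct helper T cell lineages were followed in regulatory T cells (Tregs) of 6 mouse tissues. The genes were *Tbx21*, *Eomes*, *Bcl6*, *Ahr*, *Runx1*, *Runx3*, *Zbtb7b* and *Id2*, taken as a list by name, with earlier results of these data known. They are 8 of 53465 gene IDs in the count table, and all 8 were among the 13173 protein-coding genes that were tested. The study asked how Tregs that carry ST2, the receptor for interleukin-33 encoded by *Il1rl1*, differ from those that lack it, within and across tissues. Tregs were sorted from 5 male Foxp3-YFP-cre mice, carrying the Foxp3tm4(YFP/icre)Ayr allele on the B6.129(Cg) background, aged 16.6 to 18.6 weeks. All groups share this allele, in which the *Foxp3* locus drives YFP and Cre, and the labels name no treatment. Sorted cells were CD4+ YFP+ and lacked markers of CD8 T cells, B cells and myeloid cells. ST2+ CD44hi and ST2- CD44hi Tregs came from blood, spleen, lungs, visceral adipose tissue (VAT), colon and skin. Tregs with the ST2- CD44lo CD62L+ phenotype of resting cells came from spleen and lungs. That made 14 groups of 5 libraries each, with the same 5 mice in every group. Groups differ in handling as well as in tissue. CD4+ cells were enriched on magnetic columns for spleen and lungs only. Lungs, VAT, colon and skin were digested with collagenase, skin at a higher concentration and for longer than the others. Colon was first incubated with DTT and EDTA. Tissue and handling therefore cannot be told apart.

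Of the 70 libraries, 67 with over 1000000 counts were used, which left 4 in blood ST2+, 3 in colon ST2+ and 5 in every other group. They held 1304560 to 2759926 counts. *Foxp3* was at 105 to 414 CPM (counts per 1000000, scaled with TMM factors) in every library, and *Il1rl1* was at 230.0 to 1614 CPM in ST2+ and 0 to 195 CPM in ST2- CD44hi libraries, with no overlap. Markers of other cells were present in libraries of several tissues. Summed CPM of 7 myeloid markers was 1002 to 1166 in colon ST2+ libraries against 242 to 572 in colon ST2-. There, 4 colon epithelium markers summed to 197 to 1385 CPM in ST2+ and 56.8 to 610 CPM in ST2- libraries, and 3 fibroblast markers to 249.9 to 724 and 6.82 to 471 CPM. In skin, summed CPM of 4 keratinocyte markers reached 1086 in ST2+ and 1069 in ST2- libraries, and fibroblast markers reached 564 in ST2-. In lungs, 2 lung epithelium markers summed to 26.5 to 158 CPM. The myeloid sum was 276 to 518 CPM in VAT ST2+ against 166 to 293 in VAT ST2- libraries. It was 253 to 308 CPM in blood ST2+ against 116.5 to 264 in blood ST2- libraries. In spleen Tregs the myeloid sum was 99.6 to 181 CPM. Of its markers, *Cst3* had counts in every library, at 90.5 to 411 CPM. Mean *Cst3* was 257 and 188 CPM in VAT ST2+ and ST2-, 191 and 145 in blood, and 247 and 243 in colon. Of the colon epithelium markers, *Epcam* had a mean of 155 CPM in spleen ST2+ Tregs. In blood, 2 erythroid markers reached 173.5 CPM in ST2+ and 254.5 CPM in ST2- libraries. The part of such cells in the results was not tested. Blood ST2- libraries of mice 1 and 2 held 12051 and 12587 detected genes, against 14819 to 14957 in the 3 others of that group. Calls of the 8 genes that were lost without these 2 blood ST2- libraries are named. Few genes were also detected in VAT ST2- (11877, from 93 cells) and VAT ST2+ libraries of mouse 2 (12232). The blood ST2+ library of mouse 3 held 12385, from 55 cells. These were not left out on their own. In sorted bulk samples, fewer cells that express a gene and less RNA of it per cell cannot be told apart.

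T-bet, encoded by *Tbx21*, directs the Th1 programme of interferon gamma and *Cxcr3*, and its relative Eomes acts mainly in cytotoxic cells. Bcl6 is the repressor that directs follicular helper cells and follicular Tregs. Ahr, the aryl hydrocarbon receptor, is a ligand-activated factor that dimerises with Arnt and is prominent in Th17 cells and at barrier surfaces. Runx1 and Runx3 bind DNA with the partner Cbfb, and Runx3 opposes ThPOK, the product of *Zbtb7b*, in the choice between the CD8 and CD4 lineages. Id2 has no DNA-binding domain and blocks E proteins by dimerising with them. In Tregs, such factors are known to be used alongside *Foxp3* to adapt the cells to the type of inflammation or tissue they regulate.

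The sequences upstream of the start sites are shown for 4 members whose levels separated groups below, to show what each promoter holds of the letters that factors of this list and the E proteins bind. Each is the 250 bases before the start in RefSeq (GRCm38.p6), 5′ to 3′ on the strand of the gene, and 7 of the 8 members had an entry. Capitals mark matches, on either strand, to TGTGGT (Runx core), TCACAC (T-box site), GCGTG (Ahr core) and CANNTG (E-box).
Tbx21, chr11:97115332-97115581, minus strand: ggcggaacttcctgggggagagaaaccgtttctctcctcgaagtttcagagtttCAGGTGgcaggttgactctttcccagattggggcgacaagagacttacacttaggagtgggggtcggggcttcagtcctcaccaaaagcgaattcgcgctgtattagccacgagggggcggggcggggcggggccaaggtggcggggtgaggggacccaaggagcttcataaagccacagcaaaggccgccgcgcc
Bcl6, chr16:23988853-23989102, minus strand: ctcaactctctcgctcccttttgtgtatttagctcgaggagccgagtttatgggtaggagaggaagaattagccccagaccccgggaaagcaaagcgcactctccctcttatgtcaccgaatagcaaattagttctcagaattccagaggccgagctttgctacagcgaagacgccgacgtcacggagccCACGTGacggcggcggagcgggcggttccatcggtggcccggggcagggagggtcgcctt
Runx3, chr4:135120395-135120644, plus strand: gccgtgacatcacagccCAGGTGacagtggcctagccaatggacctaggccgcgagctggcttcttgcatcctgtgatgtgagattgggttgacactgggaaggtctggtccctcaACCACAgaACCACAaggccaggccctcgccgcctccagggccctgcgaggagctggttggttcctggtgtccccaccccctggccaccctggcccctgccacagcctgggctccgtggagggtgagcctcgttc
Id2, chr12:25096093-25096342, minus strand: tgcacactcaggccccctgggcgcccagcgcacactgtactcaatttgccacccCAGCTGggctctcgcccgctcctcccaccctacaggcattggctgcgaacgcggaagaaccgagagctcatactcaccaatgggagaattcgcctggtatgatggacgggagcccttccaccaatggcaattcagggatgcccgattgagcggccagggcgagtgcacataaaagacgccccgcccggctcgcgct

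The upstream *Runx3* window held the Runx core in 2 places, both on the opposite strand and 134 and 126 bases before the start. Of all 32851 windows of this length in RefSeq, 14% held that motif. Each of the 4 windows held 1 E-box, which 66.2% of all windows did. None of the 4 held the T-box letters (12.3% of all windows) or the Ahr core (28.2%). No matches overlapped. GC content was 60.8% for *Tbx21*, 58.4% for *Bcl6*, 65.2% for *Runx3* and 62.8% for *Id2*, against a median of 52.4% over all windows. *Bcl6* and *Runx3* each have another RefSeq start site, whose window held none of these motifs.

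Per kilobase of merged exons, *Id2* had by far the highest level of the list, at 177 CPM per kb over all 67 libraries, and *Eomes* the lowest at 0.244. *Runx3* was at 19.5, *Tbx21* at 14.2, *Runx1* at 13.1, *Ahr* at 13.02, *Zbtb7b* at 7.48 and *Bcl6* at 2.88 CPM per kb. *Id2*, *Runx1*, *Runx3* and *Zbtb7b* had counts in all 67 libraries. *Ahr* was at 0 in 1 library and *Bcl6* in 4. *Tbx21* was at 0 in 16 libraries, among them 9 of the 10 CD44lo CD62L+ libraries. *Eomes* was at 0 in 51 libraries and never exceeded 21 counts. *Tbx21* (ENSMUSG00000001444) lies at chr11:97098071-97115331 in GRCm38, *Eomes* (ENSMUSG00000032446) at chr9:118478212-118486132, *Bcl6* (ENSMUSG00000022508) at chr16:23965052-23988852 and *Ahr* (ENSMUSG00000019256) at chr12:35497974-35535038. *Runx1* (ENSMUSG00000022952) lies at chr16:92601466-92826149, *Runx3* (ENSMUSG00000070691) at chr4:135120652-135177990, *Zbtb7b* (ENSMUSG00000028042) at chr3:89377644-89394776 and *Id2* (ENSMUSG00000020644) at chr12:25093799-25097140.

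**Figure D1:**
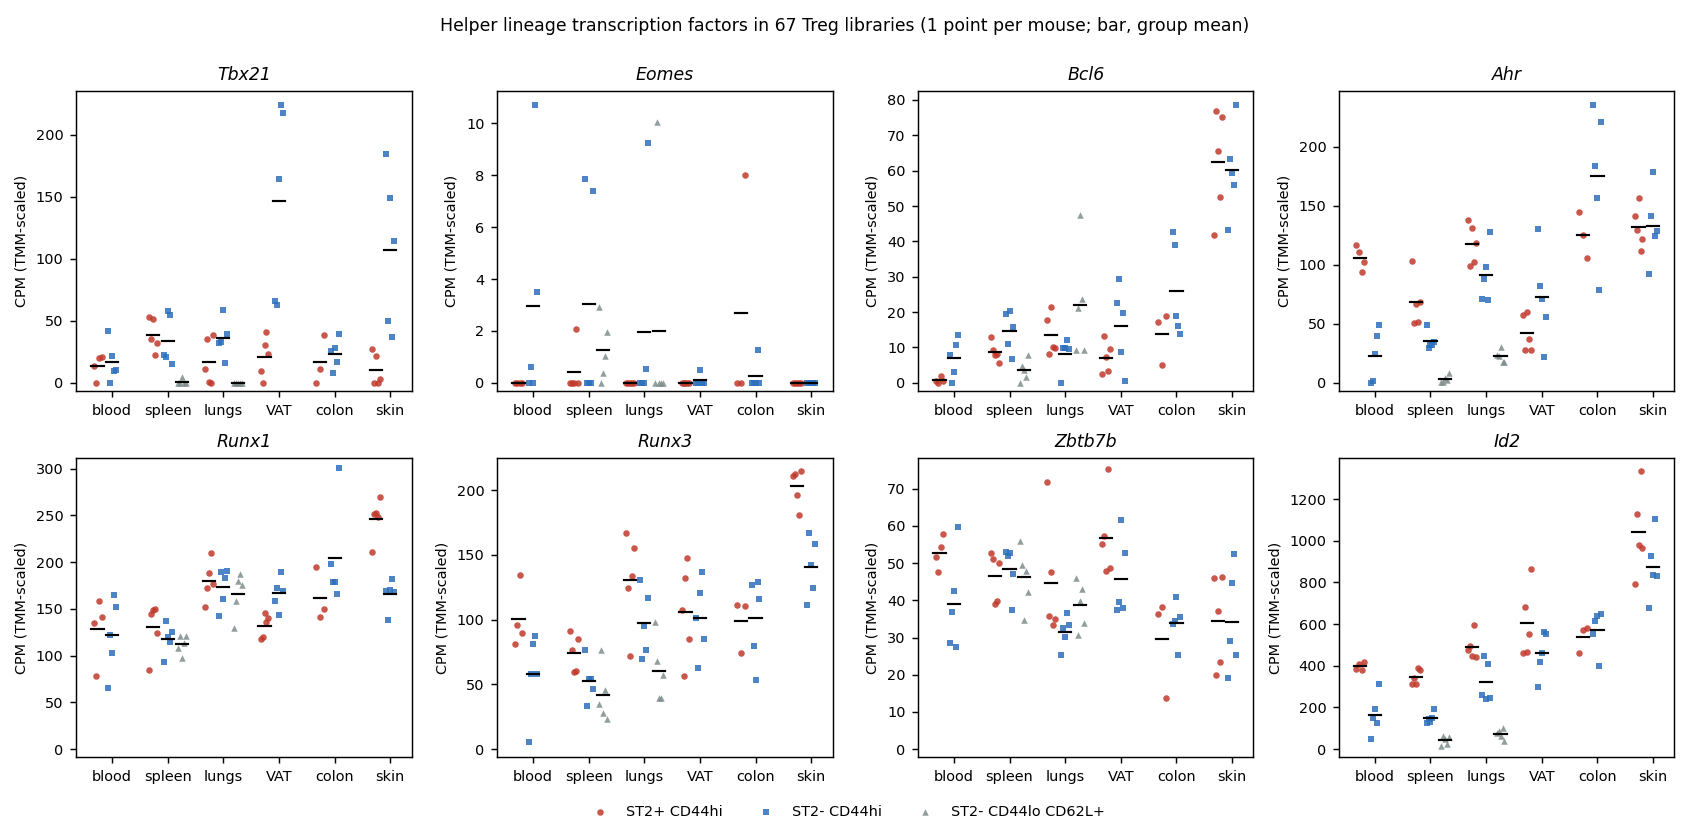
CPM of each gene (y axis, TMM-scaled, linear, with its own range per panel) by tissue (x axis), with 1 point per library and a bar at the group mean for ST2+ CD44hi (red circles), ST2- CD44hi (blue squares) and ST2- CD44lo CD62L+ Tregs (grey triangles). *Id2* and *Bcl6* had their highest group means in skin, *Tbx21* in VAT and skin ST2- Tregs, and *Zbtb7b* stayed within 13.8 to 75.3 CPM in all libraries.

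Activated CD44hi Tregs were first set against resting CD44lo CD62L+ Tregs, both ST2-, in spleen and lungs. *Tbx21*, *Ahr* and *Id2* were higher in CD44hi Tregs in both tissues. These were 6 of 16 gene by tissue tests, all in 1 direction, where 4.64% of all tests over 13173 genes passed in that direction. A DEG had an adjusted p (Benjamini-Hochberg, over all genes tested) of 0.05 or less in edgeR's quasi-likelihood test and changed 1.5-fold or more. In mice 1 to 5, *Tbx21* was at 22.4, 20.5, 57.8, 54.3 and 14.8 CPM in spleen CD44hi Tregs and at 0, 0, 5.03, 0 and 0 CPM in CD44lo Tregs. The groups did not overlap, and the difference was 4.95 on the log2 scale (SE 1.19, adjusted p 0.00394). In lungs *Tbx21* was at 31.7, 32.6, 58.6, 16.2 and 39.6 CPM in CD44hi Tregs and had no count in any of the 5 CD44lo libraries. Set against a floor of 3 counts over that group, CD44hi Tregs of the lungs were at least 134-fold higher (adjusted p 0.000159).

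*Ahr* was at 49.0, 29.7, 32.2, 32.3 and 34.8 CPM in spleen CD44hi Tregs of mice 1 to 5 and at 0.733, 0.397, 4.26, 2.58 and 8.54 CPM in CD44lo Tregs. The fold was 10.6 (log2 3.40, SE 0.54, adjusted p 3.98e-06). In lungs the values were 71.2, 88.1, 98.2, 69.9 and 128 CPM against 23.5, 23.1, 30.0, 17.9 and 17.6 CPM, a fold of 4.06 (log2 2.02, SE 0.46, adjusted p 0.00177). Every CD44hi library thus lay above every CD44lo library of its tissue, as it did for 6.28% of all genes in spleen and 4.85% in lungs. *Id2*, the E protein antagonist, was at 128, 144, 131, 149 and 193 CPM in spleen CD44hi Tregs and at 15.8, 63.5, 50.7, 26.9 and 58.6 CPM in CD44lo Tregs, a fold of 3.44 (log2 1.78, SE 0.28, adjusted p 3.01e-06). In lungs it was at 240 to 447 CPM (median 260, n = 5) against 38.7 to 99.2 CPM (median 75.7, n = 5), a fold of 4.38 (log2 2.13, SE 0.28, adjusted p 3.63e-08). All 5 mice showed each of these 6 differences.

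*Bcl6* did not pass the test in either tissue. In spleen it was at 14.6 ± 5.84 CPM in CD44hi and 3.51 ± 2.99 CPM in CD44lo Tregs (SD, n = 5 each), higher in 5 of 5 mice (log2 2.03, SE 0.71, adjusted p 0.0841), and both DESeq2 (adjusted p 0.0148) and limma with quality weights (adjusted p 0.00833) called it. In lungs it was at 8.28 ± 4.73 CPM in CD44hi and 22.1 ± 15.6 CPM in CD44lo Tregs (SD, n = 5 each; log2 -1.40, SE 0.69, adjusted p 0.262). *Runx3* was at 52.7 ± 15.7 and 41.6 ± 21.1 CPM in spleen and at 97.7 ± 25.96 and 60.5 ± 24.4 CPM in lungs (SD, n = 5 each; adjusted p 0.796 and 0.245). *Runx1* and *Zbtb7b* differed by 0.06 to 0.29 on the log2 scale in size, with SEs of 0.17 to 0.26, and *Eomes* was at or below 10.04 CPM in all of these libraries. For these 3 genes and *Runx3*, edgeR made 0 calls, 1 of the 8 tests had an unadjusted p below 0.05, and DESeq2 and limma also made 0.

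**Figure D2:**
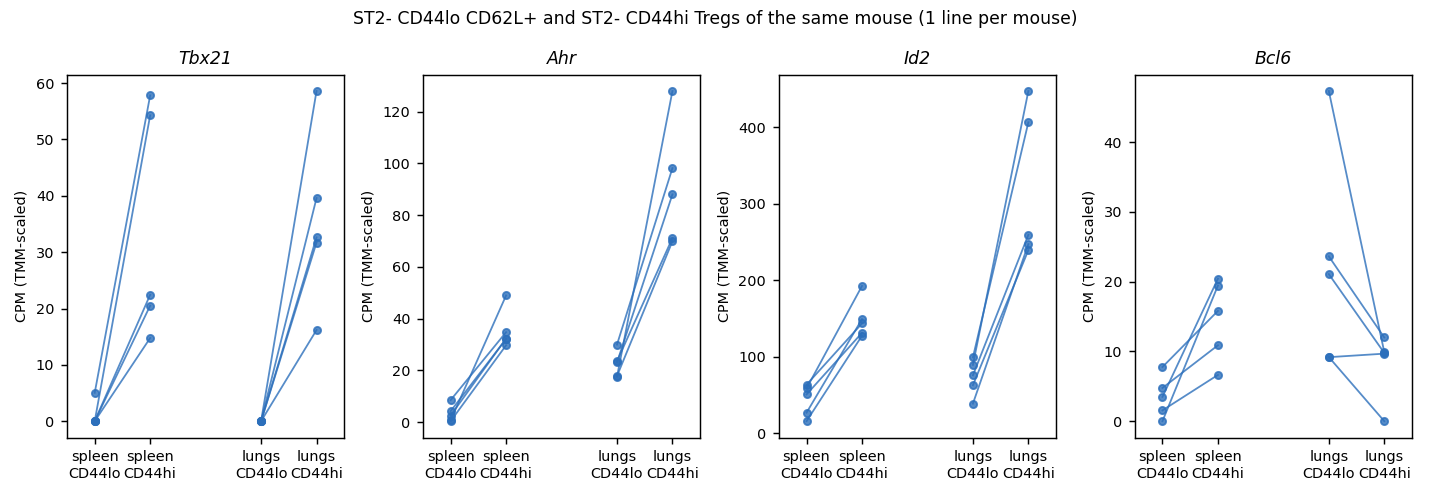
CPM (y axis, TMM-scaled) of *Tbx21*, *Ahr*, *Id2* and *Bcl6* in ST2- CD44lo CD62L+ and ST2- CD44hi Tregs of spleen and lungs (x axis), with a line joining the libraries of each mouse. *Tbx21*, *Ahr* and *Id2* lines go up in all 5 mice in both tissues, and *Bcl6* lines go up in 5 of 5 mice in spleen and in 1 of 5 in lungs.

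Resting CD44lo Tregs themselves differed between lungs and spleen. *Ahr* and *Bcl6* were higher in lungs, 2 of 8 members where 2.12% of all genes were higher. *Ahr* was at 22.4 ± 5.09 CPM in lungs and 3.302 ± 3.31 CPM in spleen (SD, n = 5 each), with no overlap, as for 2.97% of all genes in that direction (log2 2.73, SE 0.54, adjusted p 0.000451). *Bcl6* was at 9.19, 21.1, 47.3, 23.6 and 9.17 CPM in lungs and at 0, 4.76, 3.48, 1.55 and 7.76 CPM in spleen (log2 2.62, SE 0.72, adjusted p 0.0226). The *Bcl6* call was lost without mouse 2, 3 or 4 (adjusted p 0.0618, 0.239 and 0.160). *Runx1* was at 166 ± 23.0 and 112 ± 9.61 CPM (SD, n = 5 each), a fold of 1.48 that fell short of 1.5 (log2 0.57, SE 0.17, adjusted p 0.0358).

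ST2+ and ST2- CD44hi Tregs were then compared within each tissue. Of 48 gene by tissue tests, 4 were called by edgeR, against 1.42% of all such tests over 13173 genes. *Ahr* and *Id2* were higher and *Bcl6* lower in blood ST2+ Tregs, and *Id2* was higher in spleen ST2+ Tregs. In blood, 4.04% of all genes were DEGs, and in spleen 0.319%. In lungs, VAT, colon and skin 0 members were called. DEGs made up 0.782% of all genes in lungs. The share was 3.12% in VAT, 0.213% in skin and 0.0683% in colon. At an unadjusted p below 0.05 stood 2 members each in lungs, VAT and skin, and 0 in colon. DESeq2 called 0 members in these 4 tissues and limma 1, 1, 0 and 2.

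*Ahr* was at 117, 111, 93.5 and 102 CPM in blood ST2+ Tregs of mice 2 to 5 and at 0, 1.88, 24.4, 39.8 and 49.1 CPM in blood ST2- Tregs of mice 1 to 5. The lowest ST2+ library lay above the highest ST2- library, as for 2.71% of all genes (log2 2.20, SE 0.48, adjusted p 0.00229), and the difference had an adjusted p of 0.366 when the blood libraries were fitted alone. Without the blood ST2- libraries of mice 1 and 2 it was 1.49 on the log2 scale (adjusted p 0.0312). *Id2* was at 386, 407, 378 and 419 CPM in ST2+ and at 46.9, 151, 192, 124 and 312 CPM in ST2- blood Tregs, again with no overlap (log2 1.27, SE 0.28, adjusted p 0.00245). Without mice 1 and 2 in ST2- its difference was 0.93 on the log2 scale and was no longer called (adjusted p 0.0814). The lowest *Ahr*, *Id2* and *Runx3* values of the blood ST2- group all belonged to mouse 1.

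*Bcl6* was nearly absent from blood ST2+ Tregs, with 6 counts over 4 libraries. Those of mice 2 and 3 came from 202 and 55 sorted cells, and those of mice 4 and 5 from 220. *Bcl6* values there were 0.532, 0, 1.84 and 0.452 CPM in mice 2 to 5, against 7.90, 0, 2.92, 10.7 and 13.5 CPM in ST2- Tregs of mice 1 to 5. With sorted cell number added to the edgeR fit, the difference was -3.15 on the log2 scale (adjusted p 0.0358). The groups overlapped because mouse 2 had no *Bcl6* count in ST2- Tregs (log2 -3.21, SE 0.90, adjusted p 0.0252), and without the ST2- libraries of mice 1 and 2 the difference was -3.57 (adjusted p 0.0238). This call was the least stable of the 4. It was lost without mouse 2, 3, 4 or 5, with adjusted p of 0.0611, 0.145, 0.0597 and 0.150, and with limma (adjusted p 0.248). In spleen, *Id2* was at 311 to 389 CPM in ST2+ (median 344, n = 5) and at 128 to 193 CPM in ST2- Tregs (median 144, n = 5), higher in 5 of 5 mice (log2 1.22, SE 0.26, adjusted p 0.0109). That call was lost without mouse 2, 3 or 4, while the difference itself was 1.18 to 1.22 on the log2 scale without each of those mice.

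*Tbx21* had its widest ST2 differences in VAT and skin, where the groups did not overlap although edgeR did not call them. In VAT it was at 66.3, 63.0, 164, 224 and 217 CPM in ST2- Tregs of mice 1 to 5 and at 9.73, 0, 30.8, 41.3 and 23.0 CPM in ST2+ Tregs (log2 -2.80, SE 0.97, adjusted p 0.0951). In skin it was at 185, 49.9, 149, 37.1 and 114 CPM in ST2- Tregs and at 27.3, 0, 21.7, 0 and 2.83 CPM in ST2+ Tregs (log2 -3.31, SE 1.01, adjusted p 0.205). All 5 mice had less *Tbx21* in ST2+ Tregs in both tissues. Limma with quality weights called both, with adjusted p of 0.0479 in VAT and 0.00504 in skin. Groups failed to overlap in that direction in 1.42% of all genes in VAT and 0.592% in skin. In the other tissues the ST2+ and ST2- ranges of *Tbx21* overlapped, and the interaction of ST2 with tissue was not significant for *Tbx21* (adjusted p 0.423). Summed CPM of 7 NK cell and innate lymphoid markers, cells that also express *Tbx21*, was 29.6 to 278 in VAT ST2+ and 0.533 to 209 in VAT ST2- libraries, and 0 to 242 and 0.699 to 62.0 in skin, with medians of 35.1 and 79.2 in VAT and 39.2 and 4.10 in skin. Of its defining genes, *Klra8* had no count in 67 libraries and *Ncr1* in 63. Mean *Ncr1* was 15.8 CPM in VAT ST2+, 6.74 in VAT ST2-, 13.1 in skin ST2+ and 0 in skin ST2- libraries. In the same order, mean *Tyrobp* was 44.6, 42.7, 27.5 and 0.639 CPM. Mean *Fcer1g* was 36.7, 18.5, 22.2 and 9.70 CPM, and mean *Klrb1c* 11.6, 3.18, 10.04 and 0 CPM. Sorted cells were gated as CD4+ YFP+, and the part of NK and innate lymphoid cells in the *Tbx21* values was not tested. Of VAT ST2- libraries, 4 came from fewer than 220 cells, and with sorted cell number added to the fit the VAT difference was -3.54 on the log2 scale (adjusted p 0.0851).

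*Runx1* separated the ST2 groups in skin, at 211, 252, 252, 249 and 269 CPM in ST2+ and 170, 138, 170, 182 and 168 CPM in ST2- Tregs of mice 1 to 5. The fold was 1.49 (log2 0.57, SE 0.17, adjusted p 0.158), and limma called it (adjusted p 0.0238). *Runx3* did not overlap in skin either, at 181 to 215 CPM in ST2+ (median 211, n = 5) and 112 to 166 CPM in ST2- Tregs (median 142, n = 5; log2 0.53, SE 0.32, adjusted p 0.721). Both Runx genes had more in ST2+ Tregs in 5 of 5 mice, and 0.827% of all genes failed to overlap in that direction in skin. *Ahr* did not overlap in spleen, at 50.7 to 103 CPM in ST2+ and 29.7 to 49.0 CPM in ST2- Tregs, as for 1.31% of all genes (log2 0.93, SE 0.44, adjusted p 0.896). *Id2* was higher in ST2+ Tregs of 5 of 5 mice in lungs (log2 0.62, SE 0.26, adjusted p 0.357) and skin (log2 0.25, SE 0.26, adjusted p 0.927), with overlapping ranges. *Zbtb7b* differed by at most 0.50 on the log2 scale in size in any tissue (SE 0.26, lungs). *Eomes* had no count in ST2+ Tregs of blood, lungs, VAT and skin. It also had none in skin ST2- Tregs and 1 count over the VAT ST2- libraries. Single libraries reached 10.7 CPM in ST2- Tregs (blood, mouse 4) and 8.02 CPM in ST2+ Tregs (colon, mouse 4).

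**Figure D3:**
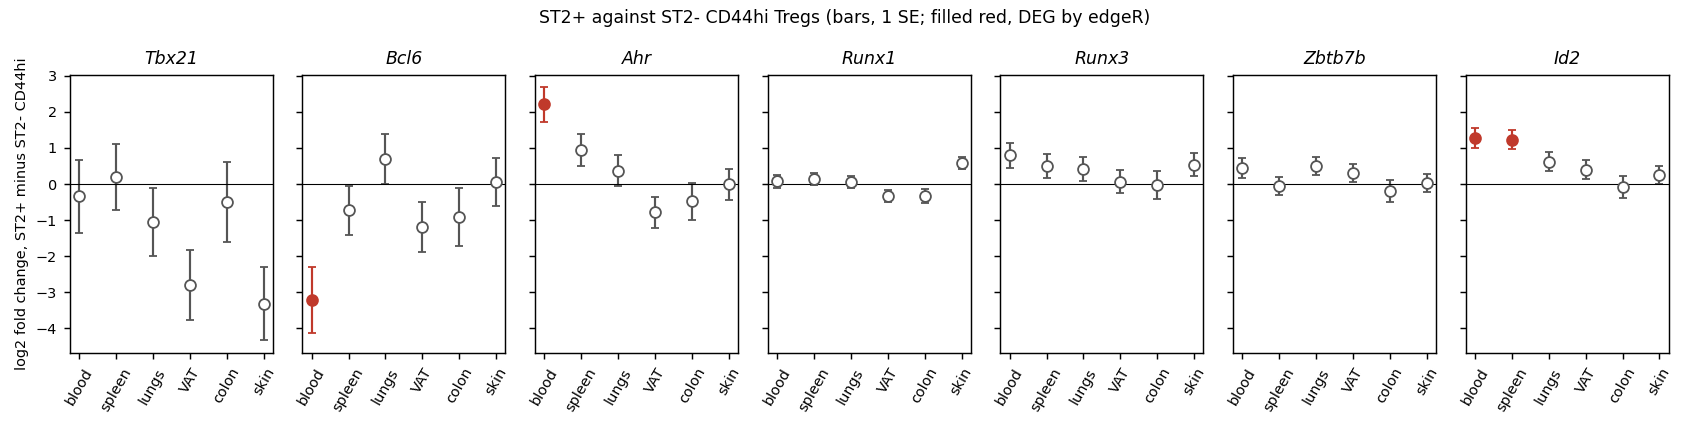
log2 fold change of ST2+ over ST2- CD44hi Tregs (y axis) in each tissue (x axis) for 7 genes, with bars of 1 SE and filled red points for DEGs by edgeR. Blood *Ahr* (2.20), *Id2* (1.27) and *Bcl6* (-3.21) and spleen *Id2* (1.22) are filled, and *Eomes* is left out because several of its groups had no count.

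The ST2 difference of *Ahr* itself varied with tissue. *Ahr* was the 1 member of 8 with a significant interaction (adjusted p 0.0347), which 1.43% of all genes had by edgeR. Its ST2 difference was 2.20 on the log2 scale in blood, 0.93 in spleen, 0.37 in lungs, 0.00 in skin, -0.48 in colon and -0.79 in VAT, with SEs of 0.43 to 0.50. Blood and spleen ST2+ Tregs thus had more *Ahr* than their ST2- partners in every mouse, and VAT ST2+ Tregs had less in 4 of 5 mice. The interaction call was lost when any 1 mouse was left out, with adjusted p of 0.0665, 0.269, 0.337, 0.0832 and 0.0712 without mice 1 to 5. Without the blood ST2- libraries of mice 1 and 2 alone it held (adjusted p 0.0241). *Runx1* (adjusted p 0.127) and *Id2* (0.138) were next, and DESeq2 also called *Runx1* (0.0460) and limma *Id2* (0.0226).

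Tissues were compared in pairs, separately in ST2- and in ST2+ CD44hi Tregs. The members made 30 calls in 120 gene by pair tests in ST2- Tregs and 25 in 120 in ST2+ Tregs. Over all genes 11.8% of such tests were called in ST2- and 12.1% in ST2+ Tregs. Skin took part in most of them. In the 10 comparisons of skin with another tissue, members were higher in skin in 30 of 80 tests and lower in 3, where 11.5% of all gene tests were higher in skin. Of the 3 lower, 2 were of *Eomes*, which had few counts, and 1 was of *Zbtb7b*. In skin against spleen alone, 14.1% of all genes were lower in skin in ST2- and 14.6% in ST2+ Tregs. *Id2* was higher in skin in 9 of its 10 comparisons, *Bcl6* in 8, *Runx3* in 5, *Runx1* in 4, *Ahr* in 3 and *Tbx21* in 1. Comparisons with skin share the skin libraries, so these counts are not independent.

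*Id2* followed the same order of tissues at both ends in both populations, lowest in spleen and blood and highest in skin. In ST2- Tregs the means were 149 ± 26 CPM in spleen, 165 ± 97.8 in blood, 320.0 ± 99.0 in lungs (SD, n = 5 each). VAT had 459 ± 108, colon 571 ± 103 and skin 875 ± 158 CPM (SD, n = 5 each). Of the neighbours in that order, blood and lungs alone differed (log2 0.96, adjusted p 0.0233), a call lost without mouse 1, 2, 3 or 4 and without the 2 blood libraries of few genes, and colon and skin had an adjusted p of 0.0881. In ST2+ Tregs the means were 347 ± 37.1 CPM in spleen (n = 5), 397 ± 18.8 in blood (n = 4), 491 ± 63.5 in lungs (n = 5), 538 ± 67.9 in colon (n = 3), 606 ± 170 in VAT (n = 5) and 1040.0 ± 202 in skin (SD, n = 5). VAT and skin differed (log2 0.78, adjusted p 0.0201) and the other neighbours did not pass the test. Skin exceeded spleen 5.87-fold in ST2- (log2 2.55, SE 0.27, adjusted p 2.13e-11) and 2.99-fold in ST2+ Tregs (log2 1.58, SE 0.26, adjusted p 2.32e-06). *Id2* was higher in skin than in all 5 other tissues in ST2+ Tregs, which 2.65% of all genes were. The skin against VAT and skin against colon calls in ST2+ Tregs were lost without mouse 2, 3 or 4.

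*Bcl6*, the follicular regulator, was highest in skin. It was at 41.8, 76.8, 65.6, 52.6 and 75.1 CPM in skin ST2+ and 43.2, 63.4, 59.3, 55.9 and 78.6 CPM in skin ST2- Tregs of mice 1 to 5. The highest value in any library outside skin was 47.3 CPM. Skin exceeded spleen 7.05-fold in ST2+ (log2 2.82, SE 0.71, adjusted p 0.00142) and 4.09-fold in ST2- Tregs (log2 2.03, SE 0.69, adjusted p 0.0175), and the ST2- call was lost without mouse 2 or 4. Colon and skin, the neighbours at the top of the order, did not differ beyond the test in ST2+ (13.8 ± 7.51 CPM in colon, SD, n = 3, adjusted p 0.0622) or ST2- Tregs (26.1 ± 13.6 CPM in colon, SD, n = 5, adjusted p 0.223). At the low end, blood ST2+ Tregs had less *Bcl6* than ST2+ Tregs of each of the 5 other tissues, with folds of 9.38 (VAT) to 81.9 (skin) and adjusted p of 4.74e-07 to 0.0109. The VAT call was lost without mouse 2, 3 or 5 and the spleen call without mouse 2 or 3. In ST2- Tregs only the comparison with skin was called for blood, with and without the 2 blood libraries of few genes.

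*Ahr* had different orders in the ST2 populations. In ST2- Tregs it was 23.0 ± 22.0 CPM in blood, 35.6 ± 7.70 in spleen, 72.3 ± 39.7 in VAT, 91.1 ± 23.8 in lungs, 133 ± 31.2 in skin and 175 ± 62.2 in colon (SD, n = 5 each), and no neighbours differed. Colon exceeded blood 7.60-fold (adjusted p 2.86e-06) and spleen 4.90-fold (adjusted p 0.000177), and skin exceeded blood and spleen as well. Lungs and VAT also exceeded blood (adjusted p 0.00430 and 0.0104), and these 2 calls were lost without the 2 blood libraries of few genes, while those of colon and skin held. In ST2+ Tregs VAT was lowest, at 57.6, 27.5, 59.8, 36.8 and 27.5 CPM in mice 1 to 5. Blood (106 ± 10.3 CPM, SD, n = 4), lungs (118 ± 17.2, n = 5) and skin (132 ± 17.3, n = 5) each exceeded VAT. The differences were 1.33 (adjusted p 0.0472), 1.48 (0.0389) and 1.65 (0.00387) on the log2 scale. The skin call held without each mouse in turn, and the blood and lungs calls were lost without mouse 2, 3, 4 or 5. Colon ST2+ Tregs were at 144, 125 and 105 CPM in mice 1, 3 and 4, and the difference from VAT was not called (log2 1.57, SE 0.49, adjusted p 0.0516).

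*Runx3* was highest in skin in both populations. It was at 203 ± 14.2 CPM in skin ST2+ (SD, n = 5) and at 74.4 ± 14.2 CPM in spleen ST2+ Tregs (SD, n = 5), the lowest ST2+ mean (log2 1.45, SE 0.33, adjusted p 0.000403). In ST2- Tregs skin had 141 ± 22.9 CPM and spleen 52.7 ± 15.7 CPM (SD, n = 5 each; log2 1.41, SE 0.33, adjusted p 0.000591). No neighbouring tissues differed in either order. *Runx1* behaved otherwise in ST2- Tregs, where colon was highest at 204 ± 54.8 CPM (SD, n = 5) and exceeded blood and spleen (log2 0.75 and 0.79, adjusted p 0.000751 and 0.000496), while skin, at 166 ± 16.3 CPM (SD, n = 5), lay within 1.5-fold of every other tissue. The *Runx1* colon library of mouse 5, at 300.2 CPM, was the highest of all, and without mouse 5 both calls held. They were made in 14 of 17 alternatives against blood and 15 of 17 against spleen. Both were lost with all 70 libraries and with a required 1.5-fold change (glmTreat), and the blood call also without the 2 blood libraries of few genes. In ST2+ Tregs skin led with 247 ± 21.5 CPM (SD, n = 5), above blood, spleen, VAT and colon by 0.95, 0.92, 0.90 and 0.60 on the log2 scale (adjusted p 2.83e-05, 1.18e-05, 2.92e-05 and 0.0228). The skin against colon call for *Runx1* was lost without mouse 2, 3, 4 or 5 and with the mouse as a replicate block.

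*Tbx21* varied among tissues in ST2- Tregs, from 16.8 ± 15.9 CPM in blood to 147 ± 78.6 CPM in VAT (SD, n = 5 each). VAT and skin exceeded blood (log2 3.11, adjusted p 0.0308, and log2 2.66, adjusted p 0.0303), and both calls were lost without mouse 2, 3, 4 or 5 and without the 2 blood libraries of few genes. In ST2+ Tregs its means lay between 10.4 and 38.7 CPM. There edgeR made 0 calls in 15 pairs with 0 at an unadjusted p below 0.05, DESeq2 made 0 and limma 1. *Zbtb7b* was the most even member, with group means of 29.5 to 56.8 CPM. Its 1 call in 30 pairs was VAT over skin in ST2+ Tregs, at 56.8 ± 11.1 and 34.6 ± 12.4 CPM (SD, n = 5 each; log2 of skin minus VAT -0.71, SE 0.26, adjusted p 0.0340), and that call was lost without mouse 2, 3 or 4. *Eomes* was lower in skin ST2- Tregs, with no count in 5 libraries, than in spleen (at least 8.66-fold lower, adjusted p 0.0422) and blood (at least 8.44-fold lower, adjusted p 0.0450). Its spleen and blood groups each held libraries at 0, and neither DESeq2 nor limma called these differences.

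**Figure D4:**
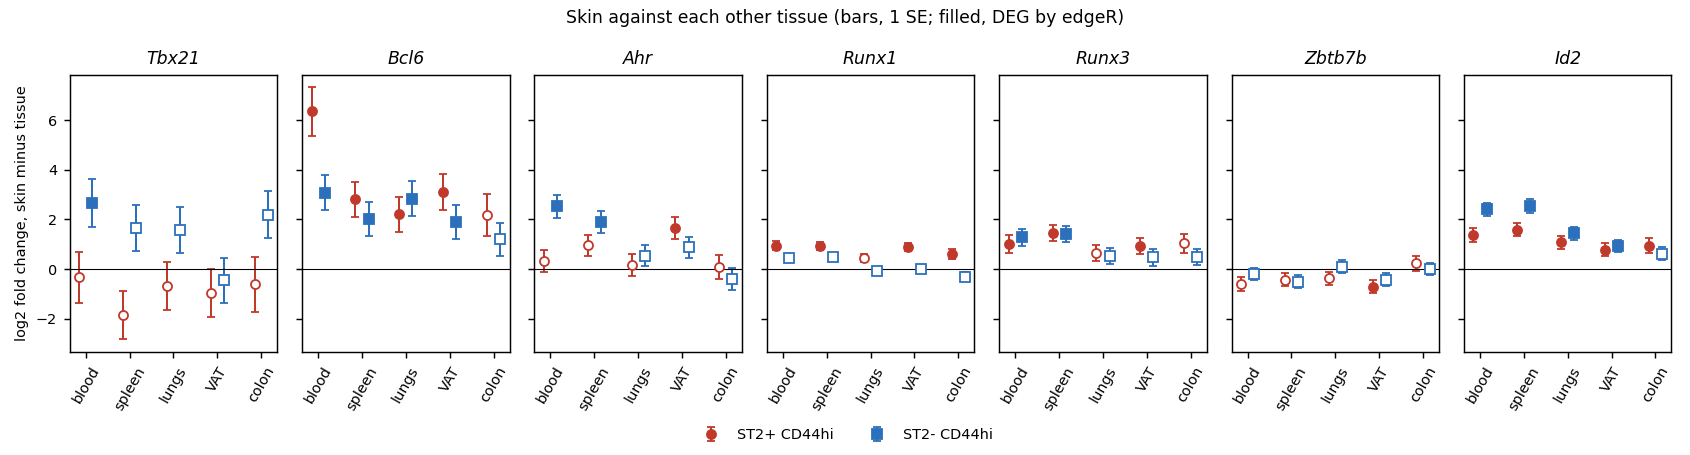
log2 fold change of skin over each other tissue (y axis) by tissue (x axis) for 7 genes in ST2+ (red circles) and ST2- CD44hi Tregs (blue squares), with bars of 1 SE and filled symbols for DEGs by edgeR. *Id2* and *Bcl6* are above 0 throughout, *Runx1* is filled in ST2+ Tregs only, and *Zbtb7b* lies between -0.71 and 0.24.

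Other genes of the same pathways were taken from lists chosen by function, with earlier results of these data known. Their counts beside the shares of all genes are a description, not a test. Of 13 partners and targets of T-bet and Eomes, 6 were higher and 0 lower in CD44hi than in CD44lo Tregs of spleen, and 6 and 0 in lungs, where 4.44% and 4.84% of all genes were higher. The target *Cxcr3* was at 344 ± 20.3 CPM in spleen CD44hi and 1.57 ± 2.81 CPM in CD44lo Tregs (SD, n = 5 each; log2 7.68, SE 0.62, adjusted p 1.55e-14). The list's median difference was 1.31 in spleen and 2.73 in lungs on the log2 scale, where the median of all genes was 0.01 in both. In VAT, 4 of the 13 genes were lower and 0 higher in ST2+ Tregs, where 1.85% of all genes were lower. Among them were *Cxcr3*, at 158 ± 89.0 CPM in ST2+ and 537 ± 51.4 CPM in ST2- Tregs, the chemokine *Ccl5* (67.7 ± 32.6 and 263 ± 69.4 CPM) and the interleukin-18 receptor *Il18r1* (80.5 ± 69.3 and 304 ± 103 CPM; SD, n = 5 each). *Cxcr3* and *Ccl5* did not overlap between the VAT groups, as for 1.42% of all genes in that direction. In skin the 1 gene called was again *Cxcr3*, at 6.39 to 42.4 CPM in ST2+ and 189 to 344 CPM in ST2- Tregs (log2 -3.72, SE 0.47, adjusted p 3.82e-07). In blood, 2 were higher in ST2+ Tregs, *Gzmb* (granzyme B) and the interleukin-18 receptor chain *Il18rap*, where 2.25% of all genes were higher. From spleen to skin, 8 of 13 were higher in ST2- Tregs (16.7% of all genes), and in ST2+ Tregs 4 were higher (14.4%) and *Cxcr3* was lower (14.6%).

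Of 13 genes of the Bcl6 and follicular programme, 8 were lower and 3 higher in skin than in spleen ST2- Tregs, and 7 lower and 1 higher in ST2+ Tregs, the opposite direction to *Bcl6* in most of them. Of all genes, 14.1% were lower in ST2- and 14.6% in ST2+ Tregs. *Cxcr5*, the follicle-homing receptor, was at 187 ± 13.8 CPM in spleen and 0.140 ± 0.313 CPM in skin ST2- Tregs (SD, n = 5 each; log2 -10.03, SE 1.03, adjusted p 1.97e-11). *Tcf7*, which encodes TCF1, was at 481 ± 60.5 and 44.6 ± 25.4 CPM (SD, n = 5 each; log2 -3.41, SE 0.36, adjusted p 1.18e-11). *Prdm1*, which encodes Blimp1 and is repressed by Bcl6 in follicular cells, was one of the 3 that were higher, at 256 ± 46.8 CPM in skin and 70.1 ± 34.2 CPM in spleen (SD, n = 5 each; log2 1.87, SE 0.40, adjusted p 0.000175). CD44hi Tregs had 7 of the 13 higher and 1 lower than CD44lo Tregs in spleen, and 5 and 1 in lungs. The shares of all genes that were higher were 4.44% and 4.84%. Blood ST2+ Tregs had 2 of the 13 higher, where 2.25% of all genes were, and 2 lower, where 4.04% of all genes were DEGs in either direction. Higher were *Icos* and *Maf* (log2 1.1 and 1.85), and lower were *Tcf7* (log2 -1.2) and *Cxcr5*. In blood *Cxcr5* had no count in the 4 ST2+ libraries and was at 68.5 to 129 CPM in the 5 ST2- libraries. It was at least 271-fold lower in ST2+ Tregs, against a floor of 3 counts over the group. It was also lower in ST2+ Tregs of spleen and lungs. In VAT, 6 of the 13 were lower in ST2+ Tregs, against 1.85% of all genes, among them *Slamf6*, at 132 ± 55.5 and 507 ± 97.6 CPM (SD, n = 5 each; log2 -1.94, SE 0.18, adjusted p 2.08e-12).

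Of 13 genes of the Ahr pathway 10 were tested. The targets *Cyp1a1*, *Cyp1a2* and *Cyp1b1* were not, at 0 in 65, 65 and 64 of 67 libraries. In skin against spleen, 7 were higher in ST2- and 5 in ST2+ Tregs and 0 were lower, where 16.7% and 14.4% of all genes were higher. *Arnt*, *Arnt2*, *Hsp90aa1*, *Hsp90ab1* and *Tiparp* were higher in both populations, and *Ptges3* and *Ahrr* in ST2- Tregs only. Mean *Ahrr* was 3.17 CPM in skin ST2- and 0.501 CPM in skin ST2+ Tregs, against 36.4 and 26.4 CPM in colon. *Tiparp*, a target that feeds back on Ahr, was at 579 ± 112 CPM in skin and 32.7 ± 13.7 CPM in spleen ST2- Tregs (log2 4.15, SE 0.29, adjusted p 2.34e-18), and at 711 ± 71.6 and 55.4 ± 19.7 CPM in ST2+ Tregs (SD, n = 5 each; log2 3.68, SE 0.28, adjusted p 1.09e-16). The partner *Arnt* was higher in skin in both populations, by 1.1 in ST2- and 1.08 in ST2+ Tregs on the log2 scale. In blood *Arnt2* was the 1 gene of the list that was higher in ST2+ Tregs, at 7.86 ± 6.11 CPM (SD, n = 4) against 0.408 ± 0.912 CPM (SD, n = 5; adjusted p 0.0138). *Gpr15*, a homing receptor induced through Ahr, was higher in CD44hi than in CD44lo Tregs of spleen (42.1 ± 32.8 and 1.78 ± 2.73 CPM) and lungs (107 ± 29.1 and 5.99 ± 5.67 CPM; SD, n = 5 each).

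Of 14 partners and targets of Runx and ThPOK 13 were tested. In skin against spleen 3 were higher and 0 lower in ST2- Tregs and 4 were higher and 1 lower in ST2+ Tregs, and in CD44hi against CD44lo Tregs 3 were higher and 1 lower in each tissue. Of all genes, 16.7% were higher in skin in ST2- Tregs and 14.4% higher and 14.6% lower in ST2+ Tregs, and in CD44hi Tregs 4.44% were higher in spleen and 4.84% in lungs. *Itgae*, which encodes CD103 and is a Runx3 target in CD8 cells, was at 1048 ± 178 CPM in skin and 115 ± 29.3 CPM in spleen ST2- Tregs (SD, n = 5 each; log2 3.18, SE 0.58, adjusted p 1.37e-05), and was higher in blood ST2+ than ST2- Tregs (385 ± 113 CPM, SD, n = 4, and 73.8 ± 41.0 CPM, SD, n = 5; adjusted p 0.0104). *Runx2* was higher in skin than in spleen in both populations and in CD44hi than in CD44lo Tregs of both tissues. *Cbfb*, the shared partner, was higher in skin than in spleen in ST2+ Tregs (161 ± 21.6 and 88.6 ± 19.3 CPM, SD, n = 5 each; adjusted p 1.28e-05). Of 5 Id and E protein genes, 1 was higher and 1 lower in skin than in spleen in each population, near the shares of all genes (16.7% higher and 14.1% lower in ST2-, 14.4% and 14.6% in ST2+ Tregs). *Id3* was at 83.8 ± 51.5 CPM in skin and 206 ± 23.2 CPM in spleen ST2- Tregs (SD, n = 5 each; log2 -1.30, SE 0.45, adjusted p 0.0206), opposite to *Id2*, and it was lower in lungs than in spleen CD44lo Tregs (43.5 ± 12.6 and 194 ± 16.5 CPM, SD, n = 5 each; adjusted p 0.00156). Of 10 other helper lineage regulators, *Gata3*, the Th2 factor, was higher in ST2+ Tregs in all 6 tissues, by 0.70 (skin) to 1.40 (VAT) on the log2 scale. In blood 5 of the 10 were higher and 0 lower in ST2+ Tregs, namely *Gata3*, *Rora*, *Batf*, *Nfil3* and *Ikzf3*, where 2.25% of all genes were higher. In skin against spleen, 7 of the 10 were higher in each population, against 16.7% of all genes in ST2- and 14.4% in ST2+ Tregs.

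The genes whose group means followed each member most closely were ranked by Pearson's r of mean log2 CPM over the 14 groups, as a description. *Tbx21* was closest to *Efhd2* (r 0.861), *Nkg7* (0.849) and its target *Cxcr3* (0.844), and *Id2* to *Cxcr6* (0.983), *Atp2b4* (0.982) and *Cobll1* (0.978). *Ahr* was closest to *Acot11* (0.931), *Icos* (0.930) and *Appl2* (0.916), and *Runx3* to *Ubxn2a* (0.968), *Raph1* (0.952) and *Ell2* (0.947). For *Bcl6* they were *Slc5a3* (0.927), *Traf3* (0.912) and *Pmepa1* (0.906), and for *Runx1* *Trp53inp2* (0.901), *Ap2b1* (0.900) and *Pim3* (0.891). *Zbtb7b* had r of 0.835 with *Ppp1r18*, 0.818 with *Set* and 0.808 with *Phf7*, and *Eomes* had r of 0.870 with *Plscr3*, 0.855 with *Igfbp4* and 0.838 with *Atp1b1*. Among the members, *Id2* and *Runx3* (r 0.912), *Ahr* and *Id2* (0.883) and *Ahr* and *Runx3* (0.848) were most alike over the groups, and over the 67 libraries these values were 0.722, 0.802 and 0.701. The 14 groups share the 5 mice and, within a tissue, the same preparation.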

How the data were processed

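RNA from sorted Tregs was amplified with SMART-Seq v4, made into NexteraXT libraries and sequenced as single reads of 58 bases. The authors trimmed and aligned reads with STAR to GRCm38 and counted reads per gene with HTSeq 0.4.1, and they deposited raw counts by gene ID for 70 libraries. Value columns left unused numbered 0. Most libraries came from 220 sorted cells, and 7 of those kept came from fewer, with 55 the lowest, in blood ST2+ Tregs of mouse 3. At the median depth of 2039002 counts, 1 CPM stood for 2.04 counts.

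Libraries over 1000000 counts were kept, and protein-coding genes (types from GENCODE M21) that reached 1 CPM in 10% or more of libraries were tested. Counts were fitted over all groups with edgeR 4.0.16 (R 4.3.3) with TMM factors, quasi-likelihood F tests and Benjamini-Hochberg adjustment over 13173 genes, separately for each comparison. limma 3.58.1 with voom quality weights, as in the study's methods, and DESeq2 1.42.0 were alternatives, with others given under the dependence on processing. The code was tested on simulated data. Tables and plots used Python 3.11.15, numpy 2.4.6, pandas 2.3.3 and matplotlib 3.10.9. Per-kilobase values divide CPM by merged exon length.

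All 8 members were named. The 3 genes most like each member were those with a mean of at least 10 CPM and the highest r of group-mean log2 CPM (prior count 2). Of the other lists, called and defining genes were named. Members and lists were chosen with earlier results of these data known. The same 5 mice gave every group, so mouse numbers pair the libraries by design. Deviations from group means correlated at a mean r of 0.0834 over 27 pairs of libraries of the same mouse and -0.02 over 108 pairs of different mice. These were only some of all pairs of libraries. The mouse as a replicate block was an alternative. Of 129 pairs of libraries compared for identity, 0 were identical, and other pairs were not compared. A few genes are not reported here.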

Additional observations from a re-analysis of the deposited data

Results flagged for a closer look

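Of 98 sets of values of 1 gene in 1 group that were tested for a single library far from the rest (Dixon's test), 9 held one. Chance gives about 1 in 20 for normally distributed values, a rate that does not hold for groups with most libraries at 0. *Tbx21* was at 5.03 CPM in spleen CD44lo CD62L+ Tregs of mouse 3 and at 0 in the 4 others. *Eomes* stood apart in 5 groups in which 1 library held most of its counts, at 0.484 CPM in VAT ST2- (mouse 3), 1.27 in colon ST2- (mouse 4), 9.24 in lungs ST2- (mouse 5), 10.04 in lungs CD44lo CD62L+ (mouse 2) and 2.06 CPM in spleen ST2+ Tregs (mouse 4). *Bcl6* was at 0 CPM in lungs ST2- Tregs of mouse 1, below 9.68 CPM in the next library. *Ahr* was at 49.0 CPM in spleen ST2- Tregs of mouse 1, above 34.8 CPM in the next. *Runx1* was at 300.2 CPM in colon ST2- Tregs of mouse 5, above 198 CPM in the next.

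The ST2 difference of *Ahr* differed among tissues by the interaction test of edgeR (adjusted p 0.0347).

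The 3 libraries under 1000000 counts entered no comparison. The blood ST2+ library of mouse 1 held 9 counts of *Ahr*, 7 of *Zbtb7b* and 148 of *Id2*. The colon ST2+ library of mouse 5 held 4 counts of *Ahr*, 8 of *Runx1* and 60 of *Id2*, and that of mouse 2 held 4 counts of *Id2*.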

How the results depend on the processing

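Calls of *Tbx21*, *Ahr* and *Id2* in CD44hi against CD44lo Tregs held under all 17 alternatives, with 6 calls in each. In ST2+ against ST2- Tregs, the 4 calls became 7 with limma, 1 when only the libraries compared were fitted, and 1 when edgeR's glmTreat required more than 1.5-fold, and were 2 to 4 without each mouse in turn. With glmTreat the tissue pairs gave 17 calls in ST2- and 12 in ST2+ Tregs, and without each mouse 20 to 31 and 13 to 29. The interaction was called for 2 members with DESeq2, 2 with limma, 2 with sorted cell number added to the fit and 0 with all 70 libraries, and for 0 to 1 without each mouse. In CD44lo Tregs of lungs against spleen, the 2 calls became 1 with only the libraries compared and 1 with glmTreat, and were 1 to 3 without each mouse. With the mouse as a replicate block there were 4 ST2 calls, 6 CD44 calls, 2 in CD44lo Tregs, 1 interaction, 28 ST2- pairs and 27 ST2+ pairs, and 3 calls were lost and 3 gained. Leaving out the blood ST2- libraries of mice 1 and 2, chosen after seeing the data, lost 7 calls and gained 11. Over all alternatives, called differences were called again 965 times and lost 172 times, and their sign changed in 0. CPM on plain totals moved 2 of 112 group means by over 1 SD, *Runx1* (224) and *Runx3* (185) in skin ST2+ Tregs. The causes were not tested. Depth limits *Eomes*, with at most 21 counts per library, *Bcl6* in blood ST2+ Tregs and *Tbx21* in CD44lo Tregs.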
